A study of Mus musculus with 6 samples.

Results

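The small leucine-rich proteoglycans are secreted proteins built on a horseshoe of leucine-rich repeats, most of which carry glycosaminoglycan chains, and 10 of their genes were followed here: Dcn, Bgn, Aspn, Lum, Fmod, Omd, Prelp, Kera, Ogn and Podn. They were chosen by name as members of this family, and each had 1 row in every deposited report, so that all 10 of 10 were found among 26458 gene symbols. The RNA came from hearts of C57BL/6 mice, from which cells labelled Thy1+HE- had been sorted. There were 3 libraries from cells taken 7 days after a sham operation and 3 taken 7 days after transaortic constriction (TAC), which narrows the aorta and raises the pressure load on the left ventricle. Both groups underwent surgery and carried no genetic change named in the labels. Thy1 is a cell surface protein of many cardiac fibroblasts, and HE is written as in the labels, which do not spell it out. The labels do not give the age or sex of the mice, or the number of animals behind a library, so p-values measure the spread between these libraries, part of which may be technical.

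In connective tissue these proteins bind collagen fibrils, help to set fibril diameter and spacing, and hold growth factors such as TGF-beta in the matrix. Class I holds decorin (Dcn), biglycan (Bgn) and asporin (Aspn). Class II holds lumican (Lum), fibromodulin (Fmod), osteomodulin (Omd), the protein encoded by Prelp and keratocan (Kera), several of which carry keratan sulfate. Osteoglycin (Ogn, also called mimecan) belongs to class III and podocan (Podn) to class V. In the heart, fibroblasts are the main source of decorin, lumican and biglycan, and biglycan is known as a component of cardiac scars.

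The library sums on gene rows were 1909337 to 2056097 counts in sham and 3351479 to 4207312 in TAC, and the smaller sums give sham the larger counting error. Values of 3 libraries are printed in the order of replicates 1, 2 and 3. Levels are given either as CPM (counts scaled to the effective library size) for comparing 1 gene between libraries, or as the deposited RPKM, which also divides by the length of the gene row, for comparing genes with each other. A floor of 3 counts stood at 0.699 to 1.55 CPM, depending on the library, and reflects counting alone. Fibroblast markers were detected in every library, and 4 of 10 rose after TAC while 4 fell. Those that rose were Col1a1, Col1a2, Col3a1 and Pdgfrl. Those that fell were Pdgfra, Ddr2, Dpt and Tcf21, with log2 fold changes of -0.80 ± 0.13, -0.78 ± 0.14, -0.69 ± 0.15 and -0.98 ± 0.15 (SE). Pdgfra, a receptor that marks resident fibroblasts, went from 948 ± 25.9 to 546 ± 24.2 CPM (SD, n = 3). Thy1, used for the sort, was at 133, 145 and 123 CPM in sham and 173, 153 and 207 CPM in TAC and did not pass.

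Markers of other cells also differed between libraries. Among all genes tested, 8.28% were called higher and 10.4% lower in TAC, which is the background for the counts of markers called here and above. A single call on a list this short says nothing of the list. Summed over 11 genes, macrophage and leukocyte markers were at 90.1, 20.7 and 27.8 CPM in sham and at 98.8, 105 and 293 CPM in TAC, with Ptprc at 0 counts in every sham library. Of these markers 4 rose and none fell among 7 tested. Pericyte markers summed over 8 genes to 2897, 2664 and 4161 CPM in sham and 2254, 1950.2 and 979 CPM in TAC, 3 of 8 falling, and TAC replicate 3 was the library with the highest leukocyte and the lowest pericyte sum. Schwann cell markers summed to 123, 135 and 154 CPM in sham and 42.0, 57.5 and 43.3 CPM in TAC, all 5 tested falling. Endothelial markers, 1 of 5 tested falling, summed to 222, 268 and 298 CPM in sham and 186, 175 and 189 CPM in TAC, without overlap. The gene that fell was Tek, the largest part of each sum, at 189, 197 and 198 CPM in sham and 97.6, 102 and 85.4 CPM in TAC. Cdh5, which did not pass, and Vwf, too low to test, were higher in every TAC library than in any sham library. The lower sum is thus that of Tek and not of the list. Cartilage, tendon and bone markers summed over 11 genes to 231, 239 and 183 CPM in sham and 329, 423 and 379.8 CPM in TAC, again without overlap. Of 5 tested, 3 rose and none fell, namely Comp, Acan and Runx2 at 2.23 ± 0.18, 2.86 ± 0.41 and 0.76 ± 0.20 on the log2 scale (SE). Sox9, the largest part of each sum, did not pass at 0.18 ± 0.16, and neither did Chad at -0.22 ± 0.28 (SE). Comp went from 25.6 ± 5.03 to 120 ± 19.9 CPM (SD, n = 3), so much of the higher sum is that of Comp. Among the untested, Tnmd, a tendon gene, had 0, 0 and 0 counts in sham and 4, 37 and 17 in TAC, Scx had 1, 0 and 0 and 8, 11 and 17, and Ibsp was at 0 in every library. The sums of smooth muscle, epicardial and cardiomyocyte markers overlapped between the groups, but some of their genes were called. Of 8 tested epicardial and mesothelial markers 3 fell, Muc16, Upk3b and Lrrn4 (listed as B430119L13Rik), and 1, Aldh1a2, rose. Of 7 smooth muscle markers Myh11 fell and Tagln rose, and of 9 cardiomyocyte markers Nppa rose and none fell. The part of these differences in the results below was not tested, and in bulk libraries fewer cells of a type and less RNA per cell cannot be told apart.

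Among the members, Fmod, Aspn and Bgn rose after TAC, and Dcn, Prelp and Podn fell. Lum, Ogn and Omd did not pass the test, and Kera was too low to test. Of 12612 genes that passed the filter on low counts, 18.7% were called by edgeR at an adjusted p under 0.05, 8.28% higher and 10.4% lower in TAC. Of the 9 members tested, 6 were called, 3 in each direction. The same 6 members had no overlap between the groups in CPM, against 36.2% of all genes tested. The median log2 fold change of the 9 members was 0.21, beside 0.01 over all genes tested.

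Several members lie side by side in the genome, and the pairs shown here were not called alike. Prelp and Fmod, 107 kb apart on chromosome 1, were called in opposite directions, and Aspn and Ogn, 40.5 kb apart on chromosome 13, gave 1 rise and 1 gene that did not pass. The log2 fold change of Ogn, 0.24 ± 0.17 (SE), had the same sign as that of Aspn. The 250 bases before the annotated start of these 4 genes are shown to set each pair side by side. They come from RefSeq in the build GRCm38.p6, whose promoter table held 8 of the 10 members and no entry for Dcn or Lum. They run 5′ to 3′ on the strand of the gene and end 1 base before the start. Fmod is at chr1:134037004-134037253 (+ strand), Prelp at chr1:133921402-133921651 (- strand), Aspn at chr13:49544193-49544442 (+ strand) and Ogn at chr13:49607765-49608014 (+ strand). The Prelp window lies inside the widest annotated span of that gene, which has an earlier start as well. Capitals mark the matches to the 5 motifs described below them.
Fmod: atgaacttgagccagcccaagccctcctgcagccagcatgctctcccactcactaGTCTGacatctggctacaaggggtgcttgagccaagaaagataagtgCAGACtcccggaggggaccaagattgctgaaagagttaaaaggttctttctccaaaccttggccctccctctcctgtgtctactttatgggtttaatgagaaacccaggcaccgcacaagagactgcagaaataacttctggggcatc
Prelp: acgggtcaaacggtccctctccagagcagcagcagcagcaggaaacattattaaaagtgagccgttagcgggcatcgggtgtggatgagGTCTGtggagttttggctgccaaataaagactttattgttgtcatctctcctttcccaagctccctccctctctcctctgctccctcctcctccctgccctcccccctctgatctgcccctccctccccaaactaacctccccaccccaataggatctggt
Aspn: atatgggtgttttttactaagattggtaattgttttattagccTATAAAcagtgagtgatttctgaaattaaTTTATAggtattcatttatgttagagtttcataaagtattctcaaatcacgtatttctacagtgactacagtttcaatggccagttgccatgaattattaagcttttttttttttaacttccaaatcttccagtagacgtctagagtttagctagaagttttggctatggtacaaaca
Ogn: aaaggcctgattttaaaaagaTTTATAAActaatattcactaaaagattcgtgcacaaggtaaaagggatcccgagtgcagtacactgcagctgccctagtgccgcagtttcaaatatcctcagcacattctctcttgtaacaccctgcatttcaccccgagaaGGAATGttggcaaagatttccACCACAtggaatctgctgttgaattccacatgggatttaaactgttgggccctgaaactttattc

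The motifs were searched on both strands, so a match may stand as its reverse complement. They were the letters TATAAA of the core promoter box, the SMAD-type element CAGAC, the TEAD-type element GGAATG, the RUNX-type element TGTGGT and the AP-1-type element TGANTCA, and among 32851 windows of the same length at least 1 match was found in 12.4%, 42.2%, 12.6%, 14% and 6.75%, in that order. Fmod held CAGAC at 2 places and Prelp at 1. Aspn held TATAAA at 2 places, and Ogn held it at 2 overlapping places on opposite strands, with 1 match each to GGAATG and TGTGGT. None of the 4 windows held TGANTCA. The windows of Bgn, Podn, Kera and Omd held no match to any of the 5. That of Bgn was 64.4% G and C, against 30.0% in Aspn. A match is a description of letters and not of binding.

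Fmod, which encodes fibromodulin, a class II member that binds collagen and takes part in fibril assembly and crosslinking, gave the largest change of the family (chromosome 1, 134037254 to 134048280 in GRCm38). It stood at 71.6, 81.8 and 90.8 CPM in sham and 349, 446 and 338 CPM in TAC. Every TAC library was above every sham library, and the lowest TAC value was several times the highest sham value. The group levels were 81.4 ± 9.60 CPM in sham and 378 ± 59.1 CPM in TAC (SD, n = 3), a log2 fold change of 2.21 ± 0.16 (SE, edgeR adjusted p of 8.41e-08). It passed in all 19 alternative settings, with values from 2.08 to 2.37 and adjusted p up to 3.09e-05.

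Aspn, the gene of asporin, a class I protein with an aspartate-rich start that binds collagen and TGF-beta, was next (chromosome 13, 49544443 to 49567565). It stood at 454, 497 and 633 CPM in sham and 1194, 1469.9 and 948 CPM in TAC. TAC replicate 2 was the highest and TAC replicate 3 the lowest TAC library, and the groups did not overlap. Its log2 fold change was 1.19 ± 0.18 (SE, edgeR adjusted p of 1.74e-04), from group levels of 528 ± 93.8 CPM in sham and 1204 ± 261 CPM in TAC (SD, n = 3). The cartilage, tendon and bone marker sum was higher in TAC as well, as it was beside the rise of Fmod, and its part in either was not tested. Aspn also passed in all 19 alternatives, between 1.02 and 1.49.

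Bgn, the gene of biglycan, the closest relative of decorin, which binds collagen and in soluble form can act on Toll-like receptors, lies on the X chromosome (chromosome X, 73483601 to 73495936). It stood at 5887, 5624 and 7078 CPM in sham and 13886, 11194 and 8251 CPM in TAC. The groups did not overlap, but TAC replicate 3 lay nearer to sham replicate 3 than to TAC replicate 1. The log2 fold change was 0.84 ± 0.20 (SE, edgeR adjusted p of 0.00802), from 6196 ± 775 CPM in sham and 11110.3 ± 2819 CPM in TAC (SD, n = 3). Without sham replicate 2 the call was lost, at 0.77 with an adjusted p of 0.0572, and over all 19 alternatives the value ran from 0.65 to 1.12 and the adjusted p from 1.43e-06 to 0.0572.

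**Figure D1:**
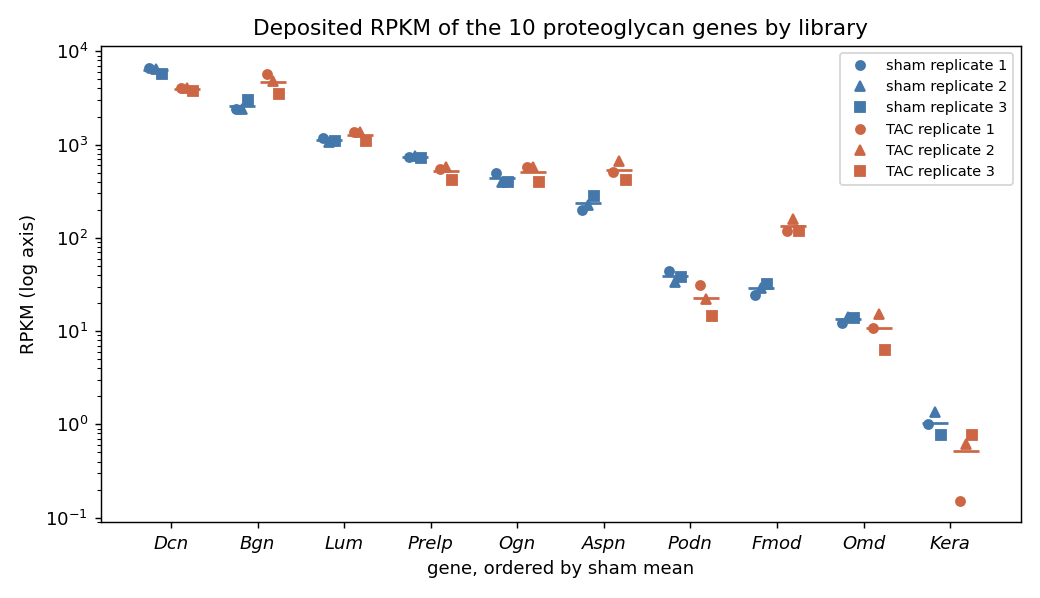
Deposited RPKM of each of the 10 genes (x axis, ordered by sham mean) in each library (y axis, log scale), with sham in blue, TAC in red, 1 marker shape per replicate number and a line at each group mean. Fmod rises from 28.7 to 133 RPKM, Dcn falls from 6312 to 3959 RPKM, and Kera stays near 1 RPKM or below.

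Dcn encodes decorin, the family's best known inhibitor of lateral fibril growth and of TGF-beta, and it was the most abundant member in sham (chromosome 10, 97479500 to 97518163). It stood at 12043, 11128 and 10098 CPM in sham and 7381, 6976 and 6589.7 CPM in TAC, with no overlap and with all 3 TAC libraries close together. The group levels were 11089.7 ± 973 CPM in sham and 6982 ± 395 CPM in TAC (SD, n = 3), a log2 fold change of -0.67 ± 0.17 (SE, edgeR adjusted p of 0.0111). Among 26457 gene rows ranked by RPKM, Dcn was at rank 2 in all 3 sham libraries and at ranks 4, 4 and 3 in TAC replicates 1, 2 and 3. The fall of Dcn was near in size to those of the fibroblast markers Dpt and Pdgfra. Of the 10 markers on that list, however, 4 fell and 4 rose, and their part in the fall of Dcn was not tested. The adjusted p was 0.0524 without TAC replicate 2, with a nearly equal fold change of -0.66, and from 7.39e-06 to 0.0524 over all 19 alternatives.

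Prelp, whose class II protein binds heparan sulfate and collagen and is known from basement membranes and cartilage, fell as well (chromosome 1, 133910304 to 133930102). It stood at 2721, 2674 and 2578 CPM in sham and 2042, 2019 and 1515 CPM in TAC. The sham libraries lay close together, and TAC replicate 3 was well under the other TAC libraries. Its log2 fold change was -0.52 ± 0.16 (SE, edgeR adjusted p of 0.0308), from 2658 ± 73.1 CPM in sham and 1859 ± 298 CPM in TAC (SD, n = 3). Leaving out sham replicate 2, sham replicate 3, TAC replicate 2 or TAC replicate 3 ended this call, with adjusted p of 0.0972, 0.0661, 0.0572 and 0.0902, and over all alternatives the log2 fold change ran from -0.59 to -0.39 and the adjusted p from 0.00495 to 0.156.

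Podn encodes podocan, a class V protein first known from the kidney glomerulus (chromosome 4, 108014793 to 108031954). It stood at 143, 103 and 120.0 CPM in sham and 102, 68.2 and 45.7 CPM in TAC. The groups did not overlap by a narrow margin, since TAC replicate 1 lay just under sham replicate 2. The log2 fold change was -0.76 ± 0.22 (SE, edgeR adjusted p of 0.0233), from 122 ± 20.1 CPM in sham and 72.1 ± 28.6 CPM in TAC (SD, n = 3). The call was lost without sham replicate 1, TAC replicate 2 or TAC replicate 3 (adjusted p of 0.0995, 0.0639 and 0.0596) and in the robust fit (0.0517). Over all 19 alternatives the log2 fold change ran from -1.09 to -0.52 and the adjusted p from 2.67e-04 to 0.0995.

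The other 3 members tested did not pass, and none passed in any of 19 alternatives. Lum, the gene of lumican, which spaces collagen fibrils and is best known from the cornea, stood at 2089.9, 1801 and 1909 CPM in sham and 2483, 2301 and 1919 CPM in TAC (chromosome 10, 97565501 to 97572703). TAC replicate 3 lay within the sham range, and the log2 fold change was 0.21 ± 0.15 (SE, 95% interval -0.11 to 0.53, edgeR adjusted p of 0.368). Ogn, the gene of osteoglycin, stood at 1295, 993 and 1006 CPM in sham and 1492, 1404 and 998 CPM in TAC (chromosome 13, 49608015 to 49624501). Sham replicate 1 was above TAC replicate 3, and the log2 fold change was 0.24 ± 0.17 (SE, 95% interval -0.12 to 0.60, edgeR adjusted p of 0.349). The interval of each ends below a doubling, so a rise as large as that of Aspn lies outside both. Omd, the gene of osteomodulin, a keratan sulfate carrier of bone and tooth matrix, was much lower, at 21.5, 24.3 and 23.8 CPM in sham and 19.6, 25.6 and 10.8 CPM in TAC (chromosome 13, 49582462 to 49592612). It rested on 43, 47 and 48 counts in sham and 64, 110 and 36 in TAC, and its log2 fold change of -0.30 ± 0.26 (SE, 95% interval -0.85 to 0.26, edgeR adjusted p of 0.469) leaves a wide range. Without TAC replicate 3 the value for Omd was -0.02.

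Kera encodes keratocan, a keratan sulfate proteoglycan of the cornea (chromosome 10, 97606962 to 97613688). It had 4, 5 and 3 counts in sham replicates 1, 2 and 3 and 1, 5 and 5 counts in the same replicates of TAC. These lie at or near the floor of 3 counts, so no fold is given.

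**Figure D2:**
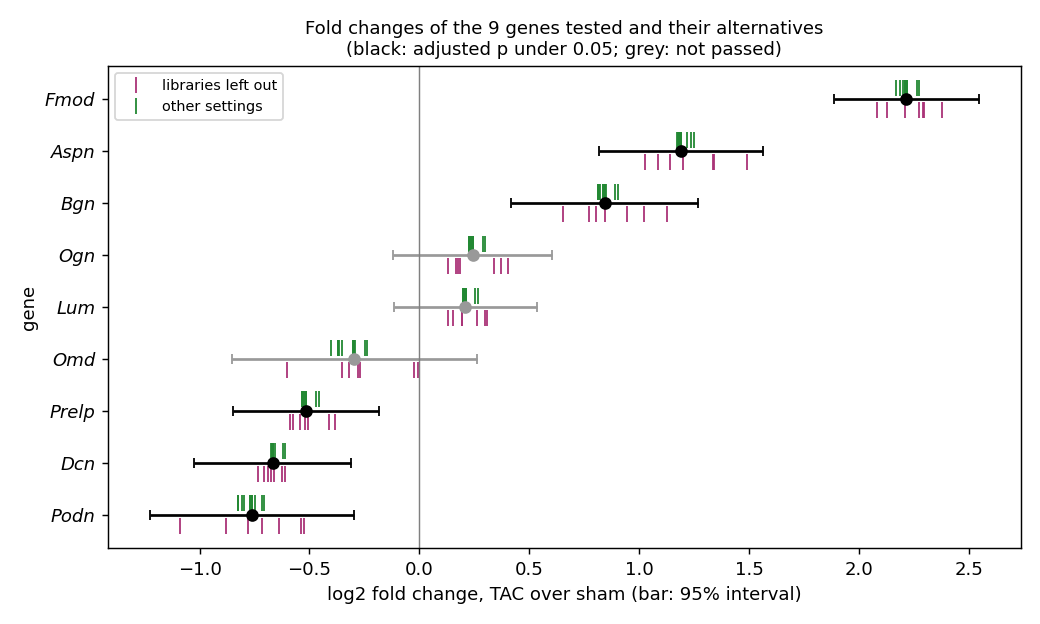
Log2 fold change of TAC over sham for the 9 genes tested (x axis, points with 95% intervals; genes on the y axis), black where the edgeR adjusted p was under 0.05 and grey where it was not, with pink ticks for the values when libraries were left out and green ticks for those under other settings. No member changed sign under any setting drawn, and Fmod at 2.21 stands apart from Aspn at 1.19.

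Per length, the sham libraries gave a strict order with no overlap between neighbours. Dcn was highest at 5779 to 6702 RPKM, then Bgn at 2426 to 3012, Lum at 1056 to 1176, Prelp at 723 to 760.3, Ogn at 400.3 to 501 and Aspn at 198 to 284 RPKM. Podn at 33.3 to 44.4, Fmod at 24.6 to 32.1, Omd at 12.1 to 14.3 and Kera at 0.771 to 1.36 RPKM followed. In TAC, Bgn at 3491 to 5665 RPKM overlapped with Dcn at 3749 to 4079, and Aspn, Prelp and Ogn overlapped at 422 to 673, 422 to 578 and 395 to 571 RPKM. Lum stayed between these groups at 1104 to 1377 RPKM. Fmod, at 118 to 161 RPKM, passed Podn at 14.5 to 31.3, which overlapped with Omd at 6.22 to 15.1 RPKM.

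The summed level of the family overlapped between the groups, while its makeup differed. The summed RPKM of the 10 genes was 11837, 11402 and 11388 in sham and 12883, 12327 and 9723 in TAC, so the groups overlapped, with TAC replicate 3 lowest. Dcn made up 54.7 ± 3.39% of that sum in sham and 34.4 ± 3.73% in TAC (SD, n = 3). Bgn made up 22.8 ± 3.21% and 39.8 ± 4.05%. The shares of Aspn, at 2.05 and 4.59%, and of Fmod, at 0.249 and 1.15%, also differed in the direction of their fold changes. Because shares sum to a whole, a larger share of 1 gene lowers those of the others.

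**Figure D3:**
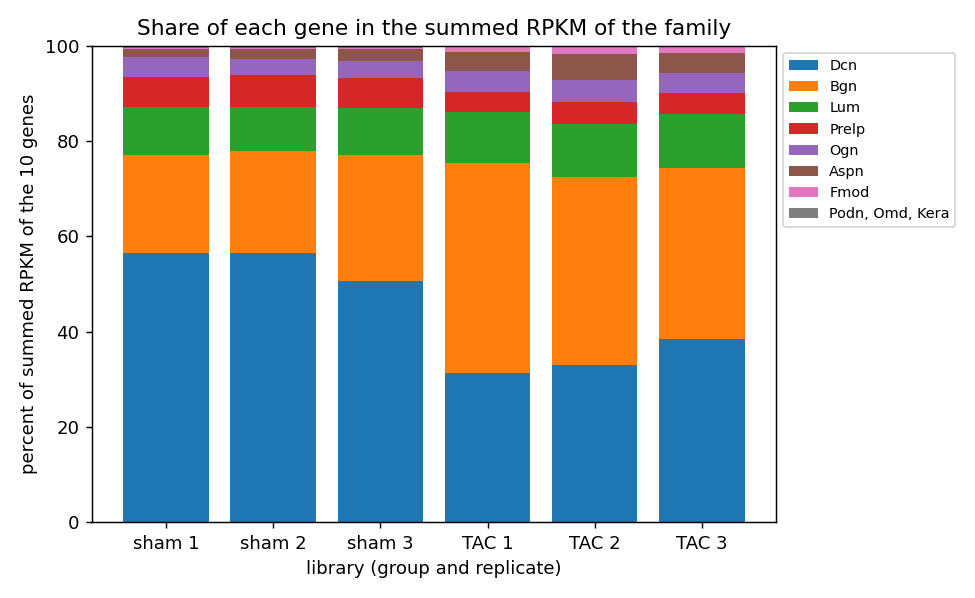
Percent of the summed RPKM of the 10 genes (y axis) taken by each gene in each library (x axis), as stacked bars. Dcn takes 50.7 to 56.6% in sham and 31.4 to 38.6% in TAC.

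Ratios between members, taken within each library so that library scaling cancels, were compared for 4 pairs picked after the values were seen. Biglycan to decorin RNA, the ratio of Bgn to Dcn RPKM, was 0.363, 0.376 and 0.521 in sham and 1.40, 1.19 and 0.931 in TAC. Dcn was thus above Bgn in every sham library, and Bgn above Dcn in TAC replicates 1 and 2 but not in TAC replicate 3. The ratio of Fmod to Prelp was 0.0332, 0.0386 and 0.0444 in sham and 0.215, 0.278 and 0.281 in TAC, and Prelp remained the higher of this pair in all 6 libraries. Aspn to Ogn gave 0.394, 0.564 and 0.709 in sham and 0.901, 1.18 and 1.07 in TAC. Lum to Dcn, neighbours 47.3 kb apart, gave 0.175, 0.164 and 0.191 in sham and 0.340, 0.333 and 0.294 in TAC. The mean differences were 1.48 on the log2 scale, 2.74, 0.95 and 0.87, higher in TAC without overlap for each of the 4 pairs. These differences are given as a description, with no test, since the pairs were picked for them, and an exact permutation test of 3 against 3 libraries cannot go below a p of 0.1.

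**Figure D4:**
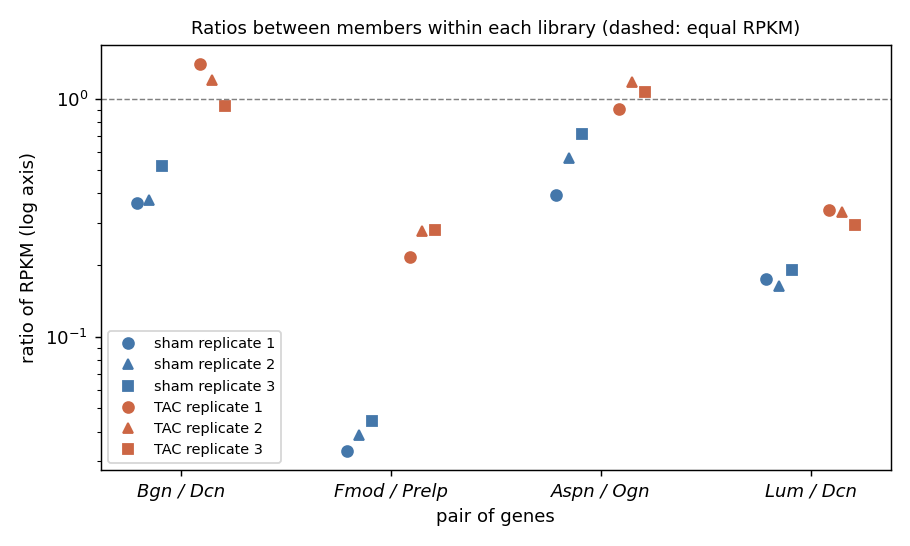
Ratio of the RPKM of 2 members within each library (y axis, log scale) for the 4 pairs on the x axis, sham in blue and TAC in red, with 1 marker shape per replicate number and a dashed line where both genes are equal. The ratio of Bgn to Dcn lies below the line in every sham library and at 1.40, 1.19 and 0.931 in the TAC libraries.

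Within the TAC group, 1 library was low across the family. In CPM, TAC replicate 3 was the lowest TAC library for all 9 members tested, whether they rose or fell, while no sham library was lowest for more than 4 of 9. For Fmod the margin was narrow, at 338 CPM against 349 in TAC replicate 1. Its RPKM was lowest in TAC replicate 1 instead, at 118.3 against 118.9 in TAC replicate 3. How often TAC replicate 3 was lowest among all genes tested was not counted. It is also the library with the highest leukocyte and lowest pericyte marker sums. Without it, the log2 fold changes of Bgn, Aspn and Fmod were 1.02, 1.34 and 2.29, that of Dcn was -0.63 with an adjusted p of 0.0252, and the falls of Prelp and Podn did not pass. Without both libraries numbered 3, which hold the highest pericyte sum of sham and the lowest of TAC, Fmod, Aspn, Bgn and Dcn still passed, at 2.37, 1.49, 1.12 and -0.69. In the same setting Prelp and Podn lost their calls, at -0.41 with an adjusted p of 0.156 and -0.54 with 0.0682. The part of the marker sums in these values was not tested.

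Along chromosome 13, Ecm2, Aspn, Omd and Ogn follow each other, and Ecm2, which encodes a related leucine-rich repeat protein, fell from 567 ± 45.6 to 369.5 ± 103 CPM (SD, n = 3), with a log2 fold change of -0.62 ± 0.18 (SE, edgeR adjusted p of 0.0236). Its TAC values were 439.6, 418 and 251 CPM, lowest again in TAC replicate 3. The call of Ecm2 was lost without sham replicate 1 (edgeR adjusted p of 0.0644), sham replicate 3 (0.0669) or both libraries numbered 3 (0.109, at -0.37). Aspn, 11.7 kb from it, rose. Cenpp, a centromere gene whose annotated span covers Aspn, Omd and Ogn, was at 1.84 to 4.66 CPM and was not tested. On chromosome 1, Btg2, an antiproliferative gene 26.6 kb beyond Fmod, fell by 0.88 ± 0.13 on the log2 scale (SE, edgeR adjusted p of 1.93e-04), against the rise of Fmod. Of 17 other protein-coding genes within 100 kb of a member, 9 were tested, of which 2, Ecm2 and Btg2, fell, beside 10.4% of all genes tested, and none rose (2 were higher at an unadjusted p under 0.05, with 0 called higher by DESeq2 and 0 by limma voom). The 7 that did not pass were Haus7, Ippk, Nol8, Iars, Epyc, Cpt2 and Scp2. Zfp92, Trex2, Atp2b3, Chit1, Optc, Ccer1 and Slc1a7 had means of at most 2.02 CPM in either group.

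**Figure D5:**
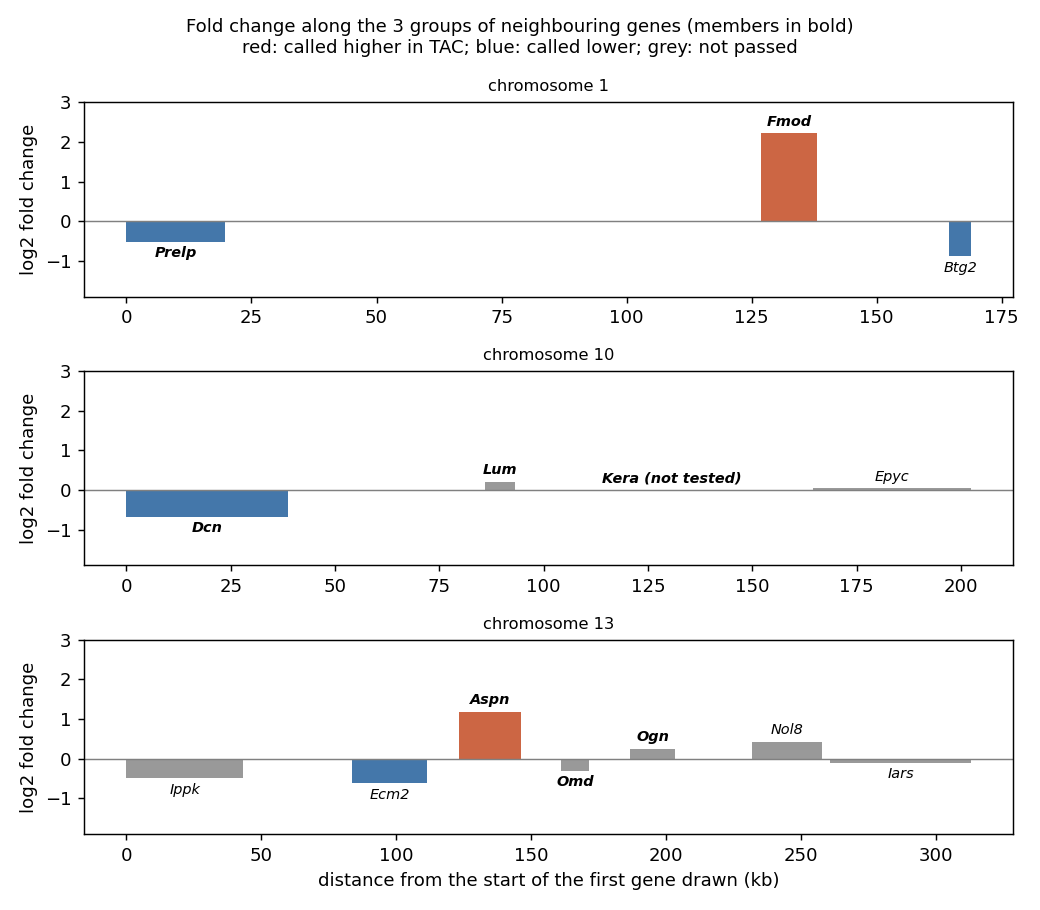
Log2 fold change of TAC over sham (y axis, bar height) for members in bold and tested neighbours within 100 kb, drawn at their position and width along chromosomes 1, 10 and 13 (x axis, kb from the first gene drawn), red where called higher, blue where called lower and grey where not passed. Fmod and Aspn are the only red bars, and each has a blue bar beside it.

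Genes whose level followed the extremes of the family were named as a description. Over the 6 libraries, and among 6743 other genes with a mean of at least 20 CPM, log2 CPM of Fmod was most like that of 1500005K14Rik, Col12a1 and Col5a1, with Pearson r of 0.998, 0.998 and 0.997. All 3 rose, by 2.70 ± 0.19, 2.89 ± 0.17 and 0.78 ± 0.13 on the log2 scale (SE), and the last 2 encode collagen chains. Podn, the member with the largest called fall, was most like LOC664895, Lgals8 and Magi3 (r of 0.997, 0.993 and 0.992), none of which passed, with log2 fold changes of -0.33 ± 0.21, -0.33 ± 0.15 and -0.44 ± 0.21 (SE). The libraries of both groups share the difference in operation and in depth, which enters each of these correlations.

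The collagens that the core proteins bind were higher in TAC almost throughout. Of 10 tested, 9 rose and none fell, against 8.28% higher and 10.4% lower among all genes tested. The median log2 fold change was 1.03 beside 0.01 over all genes, and the exception that did not pass was Col6a1. Col12a1, a fibril-associated chain, had a log2 fold change of 2.89 ± 0.17, the fibrillar chain Col5a2 of 1.59 ± 0.14, Col1a1 of 1.61 ± 0.25 and Col1a2 of 1.45 ± 0.19 (SE). Fmod, Aspn and Bgn were thus called in the direction of the collagens they bind, and Dcn, Prelp and Podn in the other.

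Enzymes that build the glycosaminoglycan chains differed in how many passed. Of 5 tested polymerases of chondroitin, 3 rose and none fell, against 8.28% of all genes tested called higher, with a median log2 fold change of 0.72. Chpf (listed as D1Bwg1363e), a chondroitin polymerizing factor, rose by 0.99 ± 0.18, Chsy1, a chondroitin synthase, by 0.77 ± 0.13 and Csgalnact1 (listed as 4732435N03Rik), which starts the chain, by 0.72 ± 0.23 on the log2 scale (SE). Csgalnact2 (listed as Galnact2) went the other way at -0.48 ± 0.19 (SE, edgeR adjusted p of 0.0889) and did not pass. Chsy3 (listed as 4833446K15Rik), at 0.33 ± 0.30 (SE), did not pass either. The call of Csgalnact1 was not made by DESeq2 (adjusted p of 0.0579) and was lost in 8 of 19 alternatives. Among these were those without sham replicate 2 or 3 or TAC replicate 1 or 2, with adjusted p of 0.150, 0.170, 0.0809 and 0.0792. Of 7 sulfotransferases and epimerases of chondroitin and dermatan sulfate, 1 rose and none fell (median 0.29). Beside 8.28% higher and 10.4% lower among all genes tested, that count says nothing of the list. The gene that rose was Chst11, a chondroitin 4-sulfotransferase, at 0.92 ± 0.26 (SE). Its call was lost in 4 of 19 alternatives, among them those without sham replicate 2 or 3 (adjusted p of 0.117 and 0.0984).

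The 6 tested enzymes that lay down the linker between protein and chain gave no call with edgeR, DESeq2 or limma voom and 0 with an unadjusted p under 0.05 (median 0.20). With 18.7% of all genes called by edgeR in either direction, no call among so few genes says nothing of the list. Fam20b (listed as C530043G21Rik), a xylose kinase, had 0.12 ± 0.16 and Xylt1, a xylosyltransferase that starts the linker, 0.14 ± 0.20 (SE). Of 6 keratan sulfate enzymes, 1 fell and none rose (median -0.18), a share near the background of 18.7% called in either direction and no result about the list. It was B3gnt2, an N-acetylglucosaminyltransferase that extends lactosamine chains, with -1.11 ± 0.14. Of 9 genes that make or carry sugar nucleotides and activated sulfate, 1 fell and none rose (median 0.01), a share near the 10.4% of all genes called lower, so the count says nothing of the list. It was Ugdh, the UDP-glucose dehydrogenase that supplies the glucuronic acid of these chains, at 962, 1229 and 1369 CPM in sham and 545, 477 and 643 CPM in TAC, so that its log2 fold change was -1.10 ± 0.16 (SE, edgeR adjusted p of 1.79e-04).

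Of 9 tested proteases listed as able to cut these proteoglycans, 4 fell and 1 rose, beside 10.4% lower and 8.28% higher among all genes tested, with a median log2 fold change of -0.91. The aggrecanases Adamts5, Adamts4 and Adamts1 fell, with log2 fold changes of -1.22 ± 0.14, -0.91 ± 0.15 and -0.91 ± 0.15 (SE), and Tll2, a tolloid-like protease, fell from a low level. Mmp14, a membrane-bound metalloproteinase, rose by 0.69 ± 0.14. Bmp1, which trims the propeptide of class I members, was at 185 ± 10.1 CPM in sham and 201 ± 8.54 CPM in TAC (SD, n = 3) and did not pass. Bmp1 was added after its values were seen.

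Receptors of the free core proteins were called in both directions, 2 higher and 3 lower of 13 tested, beside 8.28% higher and 10.4% lower among all genes tested, with a median log2 fold change of 0.08. Tlr4, a Toll-like receptor that soluble biglycan and decorin can engage, had -0.99 ± 0.15 (SE), from 98.4 ± 14.0 to 49.3 ± 5.50 CPM (SD, n = 3). Tlr2, its partner in this role, had 0.86 ± 0.28, but its call was not made by DESeq2 (adjusted p of 0.0742) or limma voom (0.0520). It was lost in 9 of 19 alternatives, among them those without sham replicate 2 or 3 or TAC replicate 2 or 3, with adjusted p of 0.108, 0.161, 0.0624 and 0.126. Tlr2 is also made by leukocytes, whose marker sum was highest in TAC replicate 3, and their part in this value was not tested. Cd44, a hyaluronan receptor, rose by 0.86 ± 0.16, and Igf1r, the insulin-like growth factor receptor that decorin binds, had -0.46 ± 0.15 (SE), a call lost in 10 of 19 alternatives. It was lost with upper quartile scaling (adjusted p of 0.0610), with no low-count filter (0.0513) and without sham replicate 2 or 3 or TAC replicate 1 or 2 (0.107, 0.190, 0.0885 and 0.143).

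Among 10 tested genes listed as secreted partners of the core proteins, 6 rose and 3 fell, beside 8.28% higher and 10.4% lower among all genes tested, with a median log2 fold change of 1.11. Ccn4 (listed as Wisp1), a matricellular protein that binds decorin and biglycan, rose by 3.50 ± 0.21, from 11, 18 and 20 counts in sham to 341, 405 and 274 in TAC. Tgfb3, a TGF-beta ligand, rose by 1.32 ± 0.14 (SE). Bmp2, a bone morphogenetic protein, fell by 1.49 ± 0.17, and Myoc, the gene of myocilin, had -2.31 ± 0.16 (SE). The complement genes C1qb and C1qc, which macrophages make, were among those that rose. C1qb had 5, 4 and 1 counts in sham and 19, 25 and 95 in TAC, and C1qc had 5, 0 and 1 counts in sham and 20, 18 and 34 in TAC. The leukocyte marker sum was also higher in TAC and was highest in the same library, TAC replicate 3. Sham replicate 1, however, had a sum of 90.1 CPM, close to the 98.8 CPM of TAC replicate 1. The part of leukocytes in the values of C1qb and C1qc was not tested.

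Of the remaining small leucine-rich repeat genes of the family, 4 of 7 found could be tested, Ecm2, Epyc, Chad and Tsku. Apart from the fall of Ecm2 none passed, beside 18.7% of all genes called in either direction, so the count says nothing of the list. Tsku had 0.51 ± 0.22 (SE, unadjusted edgeR p of 0.031, adjusted p of 0.112), and Optc, Nyx and Podnl1 were too low to test. Epyc, the gene of epiphycan, stands beside Kera on chromosome 10 and was at 10.6 ± 1.07 CPM in sham and 10.8 ± 2.97 CPM in TAC (SD, n = 3).

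Strand was not marked by the library kit, and the reads reflect that. The share of reads on the forward strand differed slightly between abundant members on opposite strands. It was 44.3 to 44.7% for Dcn on the plus strand and 55.1 to 56.9% for Prelp on the minus strand. Over the 8 members other than Kera and Omd it ran from 42.1 to 58.8%, so both strands were read. Reads of overlapping or antisense genes therefore could not be told apart from those of a member.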

How the data were processed

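Per the file headers, the authors' deposited reports were made with NextGENe 2.3.3, 1 per library, and hold read counts and RPKM values per gene row, along with the count of forward reads and per-base depths. Signal (mean per-base coverage) in the deposited reports was read but supports no result. The submitters' processing notes name mm10 and Partek 6.6 without a role. The sources used here do not say how reads with several matches were counted.

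Counts were analysed in R 4.3.3. Rows of 1 repeated symbol were summed, filterByExpr of edgeR 4.0.16 kept 12612 of 26458 symbols, libraries were scaled by TMM, and sham and TAC (3 libraries each) were compared with the two-sided quasi-likelihood F test of edgeR, with p-values adjusted over all genes (Benjamini-Hochberg) and called under 0.05. Standard errors and 95% intervals came from the quasi-likelihood F and its degrees of freedom. Alternatives used DESeq2 1.42.0, limma 3.58.1 (voom, and log2 of RPKM with pseudocounts of 1 and 0.1), other scalings and filters, a robust fit, a replicate block and each library left out. Thinning and omission of both libraries numbered 3 were chosen after seeing the data. Steps were tested on simulated data.

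The members and lists were chosen with earlier results of these data known. All 10 members were named, from each list up to 4 called genes with the smallest adjusted p or else the 2 highest, all coding neighbours within 100 kb, and for the members with the largest called rise and fall the 3 genes most like them. Positions and promoters came from RefSeq tables of GRCm38.p6, the assembly mm10 names. Plots were drawn with matplotlib 3.10.9.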

Additional observations from a re-analysis of the deposited data

How the results depend on the processing

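The count of members called higher stayed at 3 under the alternatives, apart from 2 without sham replicate 2, and the count called lower was 3 except in the robust fit, with 2, and when libraries were left out. Leaving out 1 library gave 2 to 3 members called higher, 0 to 3 called lower and 1454 to 2261 genes called, against 2353 with all libraries. Without TAC replicate 2 no member was called lower by edgeR, while 4 were lower at an unadjusted p under 0.05 and all 3 falls passed in DESeq2 and limma voom with every library. Without both libraries numbered 3, 1 member, Dcn, was called lower and 1792 genes were called. Of 171 values of single members under alternatives, 12 lost their call and none changed sign. Epyc, not called, changed sign with log2 RPKM at pseudocounts of 0.1 (-0.012) and 1 (-0.0063) and when thinned (-0.084). It also did so without TAC replicate 1 (-0.0054), TAC replicate 2 (-0.14) or sham replicate 3 (-0.044), and all fits without 1 library ran from -0.14 to 0.24. Iars changed sign without TAC replicate 3 (0.073, against -0.30 to that value over the libraries left out) and without both libraries numbered 3 (0.078). The cause of these changes was not tested. Other scalings moved the median of all genes by less than 0.1 on the log2 scale. Same-numbered libraries of sham and TAC had correlated deviations of 0.08, 0.03 and -0.09, so the numbers were not taken to pair them, and with the replicate block 2346 genes, and 3 members in each direction, were called. Depth limits Kera and, in part, Omd.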

Other observations

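Proteoglycan core proteins outside the leucine-rich family were also called in both directions. Of 17 tested, 5 rose and 5 fell, against 8.28% higher and 10.4% lower among all genes tested, with a median log2 fold change of 0.07 beside 0.01 over all genes tested. Acan, the gene of aggrecan, the large cartilage proteoglycan, had a log2 fold change of 2.86 ± 0.41 (SE, edgeR adjusted p of 1.23e-04), but its sham level rested on 4, 2 and 6 counts in replicates 1, 2 and 3. Sdc3, the gene of the cell surface heparan sulfate proteoglycan syndecan-3, stood at 115, 87.0 and 109 CPM in sham and 193, 173 and 199 CPM in TAC, without overlap, and had 0.86 ± 0.14 (SE). Spock2, a testican, fell from 57.2 ± 16.0 to 13.2 ± 5.34 CPM (SD, n = 3), a log2 fold change of -2.11 ± 0.26 (SE). Tgfbr3, the gene of betaglycan, a TGF-beta co-receptor that carries glycosaminoglycan chains, had -1.18 ± 0.16 (SE). Vcan, the gene of versican, and Hspg2, the gene of perlecan, were abundant in both groups and did not pass, at 2408 ± 503 and 2084 ± 424 CPM in sham and 3084 ± 493 and 2195 ± 305 CPM in TAC (SD, n = 3). These 2 were named after their values were seen.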
